A study of Mus musculus with 6 samples.

Results

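The Igf2-Kcnq1 domain is a cluster of imprinted genes on mouse chromosome 7. It was represented by 10 genes of the 19938 with a named probe set: Igf2, Ins2, Ascl2, Cd81, Tssc4, Kcnq1, Cdkn1c, Slc22a18, Phlda2 and Nap1l4. The members were taken by gene symbol, and each was measured by 1 probe set. Expression was read on whole-transcript arrays in 3 mouse lines that the labels call chromosome transfer embryonic stem cells. They were ♂M-1, ♂M-3 and ZM-1, each with 2 biological repeats, for 6 arrays in all. What the prefixes ♂M and ZM stand for is not spelled out, and the labels give no other genotype. All groups shared the same culture: gelatin-coated plates, LIF, PD0325901 (which inhibits MEK) and CHIR99021 (which inhibits GSK3β). The study's stated aim was to compare the profiles of these lines, in work on how the parental pronuclei of the zygote can be reprogrammed. Each name stands for 1 line, so a line and its type cannot be told apart, and the ♂M lines are not replicates of each other.

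An imprinted gene is expressed mainly from the copy inherited from a single parent. In this domain a pair of control regions, marked by DNA methylation in the germ line, set that choice. The control region beside Igf2 binds the insulator protein CTCF on the maternal copy and so keeps distant enhancers from Igf2, which is expressed from the paternal copy. The control region within Kcnq1 is the promoter of the long non-coding RNA Kcnq1ot1, which is made from the paternal copy and silences the surrounding genes there. Igf2 and Ins2 are known as the 2 paternally expressed members and the other 8 as maternally expressed ones, several of them chiefly in placenta. The domain is best known for the control of fetal and placental growth. The arrays read the sum of both copies of a gene, and allelic expression was not measured. In bulk samples such as these, less RNA per cell and fewer cells of a type cannot be told apart. Kcnq1ot1 was not analysed here.

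The 3 members that passed the test between any pair of lines were Igf2, Phlda2 and Ascl2, and a start region of each is shown. Use of these starts was not measured, and a link of their letters to the differences was not tested. The windows run from 250 bases before to 50 bases after an annotated start (RefSeq, GRCm38.p6), are written on the gene's own strand and carry CG dinucleotides in capitals. That of Igf2 (chr7:142658755-142659054, minus strand) is the richest in CG of its 4 annotated starts, those of Phlda2 (chr7:143502475-143502774, minus strand) and Ascl2 (chr7:142969215-142969514, minus strand) are their only entries.
Igf2: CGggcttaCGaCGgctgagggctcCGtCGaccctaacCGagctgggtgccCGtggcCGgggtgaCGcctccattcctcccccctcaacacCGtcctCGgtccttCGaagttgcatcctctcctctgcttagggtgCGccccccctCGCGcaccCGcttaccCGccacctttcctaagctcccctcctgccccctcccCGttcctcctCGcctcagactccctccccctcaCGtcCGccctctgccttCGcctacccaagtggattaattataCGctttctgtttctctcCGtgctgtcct
Phlda2: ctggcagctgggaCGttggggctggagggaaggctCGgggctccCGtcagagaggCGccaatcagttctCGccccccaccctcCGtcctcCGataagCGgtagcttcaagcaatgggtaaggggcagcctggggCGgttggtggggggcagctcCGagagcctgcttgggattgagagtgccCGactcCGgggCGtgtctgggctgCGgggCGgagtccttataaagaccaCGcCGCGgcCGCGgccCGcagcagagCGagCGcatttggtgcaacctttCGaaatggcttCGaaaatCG
Ascl2: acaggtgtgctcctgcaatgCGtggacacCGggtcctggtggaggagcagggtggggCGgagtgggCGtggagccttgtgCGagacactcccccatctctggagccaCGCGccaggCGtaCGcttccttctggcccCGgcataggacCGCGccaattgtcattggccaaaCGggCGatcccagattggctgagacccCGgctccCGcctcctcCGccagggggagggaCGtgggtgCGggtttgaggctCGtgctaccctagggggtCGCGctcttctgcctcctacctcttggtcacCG

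These windows held 24 CG dinucleotides for Igf2, 26 for Phlda2 and 23 for Ascl2. The median over all 32851 windows of the table was 7 and the upper quartile 20. The other Igf2 starts held 7, 14 and 2, and the array value of Igf2 does not separate transcripts by start. Cd81 and Tssc4 had windows with 23 CG dinucleotides each, and that of Slc22a18 had 2. Ins2, Kcnq1, Cdkn1c and Nap1l4 are named only. In all, 6 members matched with 9 windows. The GC-box letters GGGCGG, searched on both strands and each holding a CG of that count, occurred in 5 of the 9 windows, including the 3 shown, against 35.7% of all windows. The TATA-box letters TATAAA occurred in 2 of the 9, Cd81 and Phlda2, against 13.6% of all windows. The letters TGCCGC, bound by the imprint-keeping zinc finger protein ZFP57 when methylated, were found in 1 of the 9, an Igf2 start, against 11.6%. Such a match is a description of the letters and not a binding site.

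Igf2 also hosts the microRNA miR-483, whose mature strands (RefSeq, GRCm38.p6, chr7:142654968-142654989 and chr7:142654932-142654952, minus strand) are shown because their precursor had a probe set of its own beside Igf2. Bases 2 to 8, the seed, are in capitals, and the 2 strands do not share a seed.
mmu-miR-483-5p: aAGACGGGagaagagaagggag
mmu-miR-483-3p: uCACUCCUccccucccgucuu

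Levels are given as intensity on the linear scale of the deposited values, and levels of different genes are not compared, since probe sets differ in brightness. Differences are on the scale of log2(intensity + 1), with a 95% confidence interval and a p-value from limma adjusted by the Benjamini-Hochberg method over all 19938 genes. A gene was called where that adjusted p was under 0.05. Every comparison with ZM-1 uses the same ZM-1 arrays, and the ♂M arrays are shared in the same way. On every array 8 of the 10 members exceeded the median gene. The exceptions were Ins2 and Kcnq1, below that median on all 6 arrays but above the lower quartile.

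Of the 10 members, 3 passed the test between some pair of lines. The share of all genes called between some pair was not counted. For single pairs it was 4.41% in ♂M-1 against ZM-1, 15.9% in ♂M-3 against ZM-1 and 6.54% in ♂M-1 against ♂M-3. ♂M-1 differed from ZM-1 by a higher level of 2 members, Igf2 and Phlda2, while no member was called in ♂M-3 against ZM-1. Between the ♂M lines, Phlda2 was higher and Ascl2 lower in ♂M-1. The other 7 members were called in none of these comparisons.

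**Figure D1:**
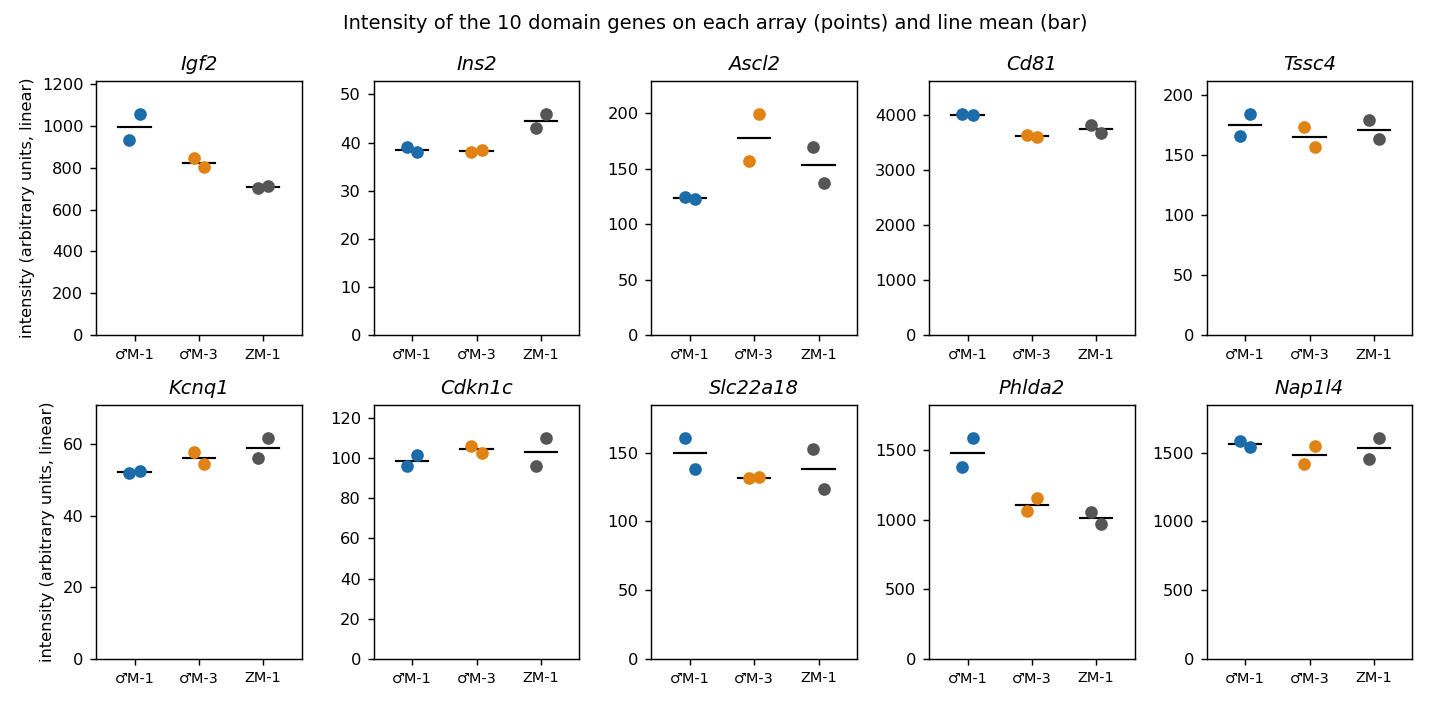
Intensity of the 10 members on every array, 1 panel per gene with its own axis starting at 0. Points are the 2 biological repeats of a line and bars the line mean, with ♂M-1, ♂M-3 and ZM-1 from left to right. Igf2 and Phlda2 are highest on the ♂M-1 arrays, and Ascl2 lowest there.

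Igf2 encodes a growth factor of the fetus and placenta. Its intensity was 933 and 1056 on the ♂M-1 arrays, 846 and 803 on the ♂M-3 arrays, and 702 and 712 on the ZM-1 arrays. The lines thus fell in the order ♂M-1, ♂M-3, ZM-1 with no overlap between any pair. The mean was 994 ± 86.7 for ♂M-1, 824 ± 30.9 for ♂M-3 and 707 ± 7.61 for ZM-1 (SD, n = 2 each).

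Igf2 was 1.40-fold higher in ♂M-1 than ZM-1, a log2 difference of 0.49 (SE 0.0849, 95% interval 0.30 to 0.68, adjusted p = 0.0155). That call did not hold without ♂M-1 replicate 2 (adjusted p = 0.120, log2 difference 0.40), without ZM-1 replicate 1 (adjusted p = 0.0505), and when unnamed and multi-gene probe sets were tested as well (adjusted p = 0.0852). Neighbours in the order were not separated by the test. The log2 difference was 0.22 in ♂M-3 against ZM-1 (interval 0.029 to 0.41, adjusted p = 0.115) and 0.27 in ♂M-1 against ♂M-3 (interval 0.076 to 0.46, adjusted p = 0.112). ♂M-3 against ZM-1 was called when each array was centred on its median (adjusted p = 0.0487), when only genes above the 50th percentile were tested (adjusted p = 0.0475) and with a prior variance that follows intensity (adjusted p = 0.0327). The last 2 settings also called ♂M-1 against ♂M-3 (adjusted p = 0.0366 and 0.0210).

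Ins2, the second paternally expressed member, encodes insulin. It measured 39.1 and 38.0 on ♂M-1 arrays, 38.1 and 38.6 on ♂M-3 arrays, and 43.1 and 45.9 on ZM-1 arrays. Both ♂M lines lay below ZM-1 on every array, opposite in direction to Igf2. Ins2 was read at a low level, between the lower quartile of genes (31.5 to 33.7 over the arrays) and the median gene. The differences did not pass the test. The log2 difference was -0.20 in ♂M-1 against ZM-1 (interval -0.37 to -0.032, adjusted p = 0.180) and -0.21 in ♂M-3 against ZM-1 (interval -0.38 to -0.040, adjusted p = 0.0939). ♂M-1 against ♂M-3 gave 0.0076 (interval -0.16 to 0.18, adjusted p = 0.976).

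Phlda2 encodes a small pleckstrin-homology protein that restrains growth of the placenta. Its intensity was 1379 and 1589.9 on the ♂M-1 arrays, 1064 and 1157 on the ♂M-3 arrays, and 1059 and 969 on the ZM-1 arrays. The ♂M-1 arrays stood above all others, and the ♂M-3 arrays lay just above those of ZM-1. The mean was 1485 ± 149 for ♂M-1, 1110.4 ± 65.3 for ♂M-3 and 1014 ± 63.5 for ZM-1 (SD, n = 2 each).

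Phlda2 was 1.46-fold higher in ♂M-1 than ZM-1, a log2 difference of 0.55 (SE 0.0955, 95% interval 0.33 to 0.76, adjusted p = 0.0156). The call did not hold without ♂M-1 replicate 2 (adjusted p = 0.125), without ZM-1 replicate 2 (adjusted p = 0.0634) and with all probe sets tested (adjusted p = 0.0924). It was 1.33-fold higher in ♂M-1 than in ♂M-3, a log2 difference of 0.42 (interval 0.20 to 0.63, adjusted p = 0.0352). This second call did not hold without ♂M-1 replicate 2 (adjusted p = 0.248), without ♂M-3 replicate 1 (0.207) or replicate 2 (0.100), and with all probe sets tested (0.152). ♂M-3 against ZM-1 gave a log2 difference of 0.13 that did not pass (interval -0.085 to 0.35, adjusted p = 0.408).

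Ascl2 encodes a basic helix-loop-helix transcription factor needed for the spongiotrophoblast of the placenta. It measured 124 and 122 on ♂M-1 arrays, 157 and 199 on ♂M-3 arrays, and 169 and 137 on ZM-1 arrays. Both ♂M-1 arrays were below all others, while the arrays of ♂M-3 and ZM-1 overlapped and their repeats lay far apart. On the log2 scale its repeats differed by 0.020 in ♂M-1, 0.34 in ♂M-3 and 0.30 within ZM-1, where the median gene differed by 0.0873, 0.0802 and 0.0972 in the same lines.

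Ascl2 was 1.43-fold lower in ♂M-1 than in ♂M-3, a log2 difference of -0.52 (SE 0.129, 95% interval -0.81 to -0.22, adjusted p = 0.0482). The call was lost with no pseudocount (adjusted p = 0.0549), with all probe sets tested (0.203), and without ♂M-1 replicate 1 (0.167), ♂M-1 replicate 2 (0.250) or ♂M-3 replicate 2 (0.284). Leaving out that last array moved the log2 difference to -0.35. Against ZM-1, Ascl2 differed by -0.31 in ♂M-1 (interval -0.60 to -0.015, adjusted p = 0.230) and by 0.21 in ♂M-3 (interval -0.082 to 0.50, adjusted p = 0.320), neither past the test.

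Cdkn1c, the cyclin-dependent kinase inhibitor p57 and a brake on fetal growth, measured 96.2 and 101 on ♂M-1 arrays, 106 and 103 on ♂M-3 arrays, and 95.8 and 110.0 on ZM-1 arrays. The ZM-1 repeats enclosed the arrays of both ♂M lines. Its log2 difference was -0.056 in ♂M-1 against ZM-1 (interval -0.25 to 0.14, adjusted p = 0.778) and 0.021 in ♂M-3 against ZM-1 (interval -0.18 to 0.22, adjusted p = 0.903). The interval for ♂M-1 against ♂M-3 ran between -0.28 and 0.12 (adjusted p = 0.715).

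Kcnq1, a voltage-gated potassium channel subunit whose gene holds the second control region, measured 51.8 and 52.6 on ♂M-1 arrays, 57.6 and 54.4 on ♂M-3 arrays, and 56.1 and 61.7 on ZM-1 arrays. The ♂M-1 arrays were the lowest, without a call. The log2 difference was -0.17 in ♂M-1 against ZM-1 (interval -0.35 to 0.012, adjusted p = 0.282), -0.071 in ♂M-3 against ZM-1 (adjusted p = 0.613) and -0.099 in ♂M-1 against ♂M-3 (adjusted p = 0.581).

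Slc22a18, a transporter-like membrane protein next to Cdkn1c, measured 161 and 138 on ♂M-1 arrays, 132 and 132 on ♂M-3 arrays, and 153 and 123 on ZM-1 arrays. The repeats of ♂M-1 and of ZM-1 were farther apart than the line means. Its log2 difference was 0.12 in ♂M-1 against ZM-1 (interval -0.14 to 0.38, adjusted p = 0.621), -0.060 in ♂M-3 against ZM-1 (adjusted p = 0.778) and 0.18 in ♂M-1 against ♂M-3 (interval -0.080 to 0.43, adjusted p = 0.458).

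Cd81 encodes a tetraspanin of the cell surface. It measured 4019 and 4004 on ♂M-1 arrays, 3646 and 3607 on ♂M-3 arrays, and 3828.5 and 3671 on ZM-1 arrays. The lines did not overlap, but they lay close together. The log2 difference was 0.098 in ♂M-1 against ZM-1 (interval -0.067 to 0.26, adjusted p = 0.512), -0.048 in ♂M-3 against ZM-1 (adjusted p = 0.717) and 0.15 in ♂M-1 against ♂M-3 (interval -0.019 to 0.31, adjusted p = 0.321).

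Tssc4, known in human cells for a role in spliceosome assembly, measured 167 and 184 on ♂M-1 arrays, 174 and 157 on ♂M-3 arrays, and 179.5 and 163 on ZM-1 arrays. Nap1l4, a histone chaperone of the nucleosome assembly family, measured 1584 and 1538 on ♂M-1 arrays, 1419 and 1551 on ♂M-3 arrays, and 1455.5 and 1607 on ZM-1 arrays. For both genes the arrays of all lines overlapped. Tssc4 differed from ZM-1 by 0.033 in ♂M-1 (interval -0.18 to 0.24, adjusted p = 0.886) and by -0.051 in ♂M-3 (interval -0.26 to 0.16, adjusted p = 0.763). For Nap1l4 the corresponding log2 differences were 0.029 (interval -0.16 to 0.22, adjusted p = 0.890) and -0.044 (interval -0.24 to 0.15, adjusted p = 0.782).

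Set against all genes, 2 of 10 members were called in ♂M-1 against ZM-1, where 4.41% of genes were called (1.89% higher and 2.53% lower). In ♂M-3 against ZM-1 it was 0 of 10 in limma, where 15.9% of genes were called (8.66% higher and 7.20% lower), and 2 of 10, Igf2 and Ins2, had an unadjusted p under 0.05, against 30.0% of all genes. In ♂M-1 against ♂M-3 it was 2 of 10, beside 6.54% of genes (3.22% higher and 3.32% lower). The median log2 difference of the members was 0.031, -0.046 and 0.079 in these comparisons, against -0.0082, 0.0021 and -0.017 for all genes. With so few members these counts are a description of the list.

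Counting non-overlap of the 2 arrays of each line in place of the test gave 6 of 10 members in ♂M-1 against ZM-1, where 48.9% of all genes did not overlap (23.0% higher and 25.9% lower). Of the 6, Igf2, Cd81 and Phlda2 were higher and Ins2, Ascl2 and Kcnq1 lower in ♂M-1. ♂M-3 against ZM-1 gave 4 of 10, beside 57.5% of genes (30.1% higher and 27.4% lower). Igf2 and Phlda2 were higher there, and Ins2 and Cd81 lower. ♂M-1 against ♂M-3 gave 7 of 10, beside 50.5% (21.6% higher and 28.9% lower), with Igf2, Cd81, Slc22a18 and Phlda2 higher and Ascl2, Kcnq1 and Cdkn1c lower. Those shares are near the share of all genes.

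**Figure D2:**
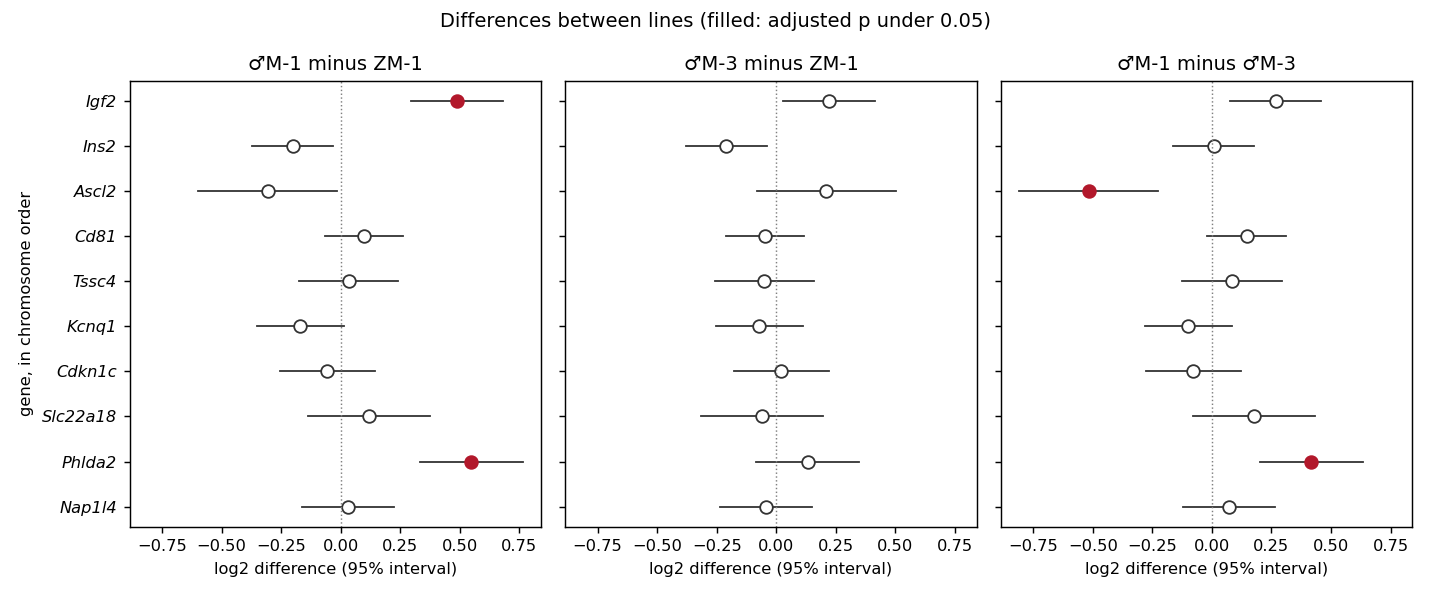
Log2 difference of each member with its 95% confidence interval, in 1 panel per comparison, with members down the page in chromosomal order and a line at 0. Filled points are called by limma: Igf2 and Phlda2 in ♂M-1 minus ZM-1, Phlda2 and Ascl2 in ♂M-1 minus ♂M-3, and none in ♂M-3 minus ZM-1.

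The mean of both ♂M lines was also set against ZM-1. Igf2 was higher by 0.35 on the log2 scale (interval 0.19 to 0.52, adjusted p = 0.0166). Phlda2 was higher by 0.34 (interval 0.15 to 0.53, adjusted p = 0.0314). These were the 2 of 10 members called, beside 11.7% of all genes (6.03% higher and 5.66% lower). Phlda2 itself differed between the ♂M lines by limma (adjusted p = 0.0352), so its mean over them stands for neither line. The Igf2 call did not hold without ♂M-3 replicate 1 (adjusted p = 0.0535), ZM-1 replicate 1 (0.0674) or ZM-1 replicate 2 (0.0633), and with all probe sets tested (0.0667). The Phlda2 call was kept only without ♂M-1 replicate 1 among the arrays left out, lay at 0.0508 to 0.159 without any other, and was lost with quantile normalization (adjusted p = 0.0709) and with all probe sets tested (0.102). Ins2 gave -0.21 (interval -0.35 to -0.059, adjusted p = 0.0751), and the other 7 members had adjusted p of at least 0.307.

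Several cell types other than embryonic stem cells express genes of the domain, so marker genes were read beside these values, and the part of any such cells in the results on the members was not tested. No marker was listed at 0. All 8 pluripotency markers lay above the median gene on every array, with summed intensities of 15710 to 16733 on ♂M-1 arrays, 18085 to 18117 on ♂M-3 arrays and 16261 to 16549 on ZM-1 arrays. Of these 8, 3 were higher in ♂M-3 against ZM-1 and 2 were lower in ♂M-1 against ♂M-3, beside 8.66% and 3.32% of all genes. Zfp42, a marker of naive pluripotency, measured 283 and 299 on ♂M-1 arrays, 673 and 668 on ♂M-3 arrays, and 263 and 280.0 on ZM-1 arrays. It was 2.47-fold higher in ♂M-3 than in ZM-1 (adjusted p = 2.4e-05) and 2.30-fold lower in ♂M-1 than in ♂M-3 (adjusted p = 8.64e-05). The pluripotency factor gene Tfcp2l1 was 1.26-fold higher in ♂M-3 than in ZM-1 (adjusted p = 0.0226, lost without any ♂M-3 or ZM-1 array at 0.0631 to 0.111) and 1.47-fold lower in ♂M-1 than in ♂M-3 (adjusted p = 0.00458, and 0.0527 without ♂M-1 replicate 2). Nanog was 1.22-fold higher in ♂M-3 than in ZM-1 (adjusted p = 0.0384), a call lost without any ♂M-3 or ZM-1 array (0.0806 to 0.161) and with quantile normalization (0.0707).

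The 11 fibroblast markers measured summed to 3745 to 4067 on ♂M-1 arrays, 2491 to 2563 on ♂M-3 arrays and 4240 to 4379 on ZM-1 arrays, and 10 of the 11 lay above the median gene on every array. Against ZM-1, 10 of the 11 were lower in ♂M-3, beside 7.20% of all genes, with a median log2 difference of -0.58 over the list. The largest were Dcn (5.44-fold), Twist2 (2.23-fold), Mmp2 (2.19-fold), Prrx1 (1.65-fold), Postn (1.58-fold) and Col1a1 (1.49-fold). Among the 10, the calls of Lum, Postn and Col1a2 were lost without a ♂M-3 array, at 0.0747 and 0.233, 0.0654 and 0.0589, and, without replicate 2, 0.0546. That of Lum was also lost without either ♂M-1 array (0.0630) or ZM-1 replicate 2 (0.168), with median centring (0.0640) and with quantile normalization (0.0548).

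Between the ♂M lines, 9 of the 11 fibroblast markers were higher in ♂M-1 than in ♂M-3, beside 3.22% of all genes. The median log2 difference of the list was 0.68. The largest were Dcn (2.03-fold), Twist2 (1.68-fold), Postn (1.65-fold), Prrx1 (1.62-fold), Col1a1 (1.62-fold) and Mmp2 (1.60-fold). Calls lost without an array were those of Col3a1 (any ♂M array, 0.102 to 0.191), Postn (either ♂M-3 array, 0.0885 and 0.0799) and Thy1 (replicate 2 of ♂M-1 or ♂M-3, 0.0544 and 0.0512). In ♂M-1 against ZM-1, 3 of the 11 were lower, Dcn, Mmp2 and Twist2, beside 2.53% of all genes. The median over the list was -0.025 and 5 of the 11 had a positive difference. Dcn was 2.68-fold lower (adjusted p = 0.000332). Mmp2 was 1.37-fold lower (adjusted p = 0.0161, and 0.125 without ♂M-1 replicate 2 or 0.0617 without ZM-1 replicate 1). Twist2 was 1.32-fold lower (adjusted p = 0.0220, lost without either ♂M-1 array at 0.0739 and 0.149 or ZM-1 replicate 1 at 0.0775).

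The 10 trophectoderm markers summed to 1308 to 1346 on ♂M-1 arrays, 1396 to 1429 on ♂M-3 arrays and 1363 to 1414 on ZM-1 arrays, and 4 or 5 of them lay above the median gene on an array. Against ZM-1, 1 was higher and 1 lower in each ♂M line, where 4.41% of all genes were called in ♂M-1 and 15.9% in ♂M-3. Tfap2c, a transcription factor gene of trophoblast and germ cells, measured 318 and 347 on ♂M-1 arrays, 353 and 346 on ♂M-3 arrays, and 214 and 177 on ZM-1 arrays. It was 1.70-fold higher in ♂M-1 than ZM-1 (adjusted p = 0.00366), a call lost without ♂M-1 replicate 2, where the log2 difference was 0.71. In ♂M-3 it was 1.79-fold higher than in ZM-1 (adjusted p = 0.000879). The keratin gene Krt18 was 1.45-fold lower in ♂M-1 than ZM-1 (adjusted p = 0.0101, and 0.0561 or 0.0968 without a ♂M-1 array) and 1.50-fold lower in ♂M-3 than in ZM-1 (adjusted p = 0.00252). Of the other markers, the trophoblast factor genes Cdx2 and Elf5 lay below the median gene.

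Primitive endoderm markers, 11 in number, summed to 970 to 999 on ♂M-1 arrays, 801 to 836 on ♂M-3 arrays and 997 to 1063 on ZM-1 arrays. Against ZM-1, 2 of the 11 were lower in ♂M-3, beside 7.20% of all genes. The median log2 difference of the list was -0.18, and 3 of the 11 had a positive difference. Between the ♂M lines, 2 of the 11 were higher in ♂M-1, beside 3.22% of all genes. The median there was 0.056, and only 6 of the 11 had a positive difference. The laminin gene Lamb1 was 1.66-fold lower in ♂M-3 than in ZM-1 (adjusted p = 0.000427), as was Pdgfra by 1.37-fold (adjusted p = 0.0153, and 0.116 without ♂M-3 replicate 2 or 0.0547 without ZM-1 replicate 1). In ♂M-1 against ♂M-3, Lamb1 was 1.46-fold higher (adjusted p = 0.00395) and Dab2 1.45-fold higher (adjusted p = 0.00762, and 0.0788 without ♂M-1 replicate 2 or 0.0715 without ♂M-3 replicate 1). The 9 mesoderm markers measured summed to between 461 and 521 over all arrays. Of the 9, 1 was higher and 1 lower in ♂M-3 against ZM-1, beside 8.66% and 7.20% of all genes. In ♂M-3 against ZM-1, Tbx6 was 1.40-fold higher (adjusted p = 0.0212, and 0.137 without ♂M-3 replicate 1 or 0.0883 without ZM-1 replicate 1) and Foxf1 1.31-fold lower (adjusted p = 0.0198, lost without either ♂M-3 array at 0.103 and 0.0898 or ZM-1 replicate 2 at 0.0956).

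In ♂M-1 against ♂M-3, with Phlda2 higher and Ascl2 lower, 9 of 11 fibroblast and 2 of 11 primitive endoderm markers were higher. There 2 of 8 pluripotency markers were lower, and of all genes 3.22% were higher and 3.32% lower. In ♂M-3 against ZM-1, 10 of 11 fibroblast and 2 of 11 primitive endoderm markers were lower and 3 of 8 pluripotency markers higher. Of all genes 7.20% were lower and 8.66% higher, and no member was called there. In ♂M-1 against ZM-1, with Igf2 and Phlda2 higher, 3 of 11 fibroblast markers were lower and none higher. Of all genes 2.53% were lower and 1.89% higher. Against ZM-1, 1 of 10 trophectoderm markers was higher and 1 lower in each ♂M line. Of 9 mesoderm markers, 1 was higher and 1 lower in ♂M-3. A link of markers and members was not tested. With all probe sets tested, adjusted p was above 0.05 for Tfap2c (0.0538), Krt18 (0.0735), Mmp2 (0.0814) and Twist2 (0.0894) in ♂M-1 against ZM-1, and for Col3a1 (0.117), Postn (0.116) and Dab2 (0.0648) in ♂M-1 against ♂M-3. With the mean of the probe sets of a gene, it was above 0.05 for Dab2 in ♂M-1 against ♂M-3 (0.0684) and for Foxf1 in ♂M-3 against ZM-1 (0.105). With all probe sets tested in ♂M-3 against ZM-1, it was above 0.05 for Nanog (0.0920), Tfcp2l1 (0.0713), Pdgfra (0.0700), Lum (0.106), Postn (0.0707), Tbx6 (0.0903) and Foxf1 (0.0745).

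Along the chromosome, 16 measured genes lay between the outermost members, 6 of them not members. No call fell on those 6 in any comparison by limma, and at an unadjusted p under 0.05 there were 0 in ♂M-1 against ZM-1, 1 in ♂M-3 against ZM-1 (the clone R74862) and 0 in ♂M-1 against ♂M-3. The probe set of Mir483, whose strands are shown above, measured 99.1 and 105 on ♂M-1 arrays, 110 and 91.1 on ♂M-3 arrays, and 95.1 and 117 on ZM-1 arrays. It lay next to Igf2 without its pattern, and the ZM-1 arrays enclosed those of ♂M-1. Th, the tyrosine hydroxylase gene, ranged between 48.3 and 59.4 over the arrays, and Trpm5, a taste-cell ion channel gene, between 26.4 and 33.2. Tspan32, a tetraspanin gene, averaged 26.7 in ♂M-1, 30.6 in ♂M-3 and, by the same measure, 29.7 in ZM-1.

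**Figure D3:**
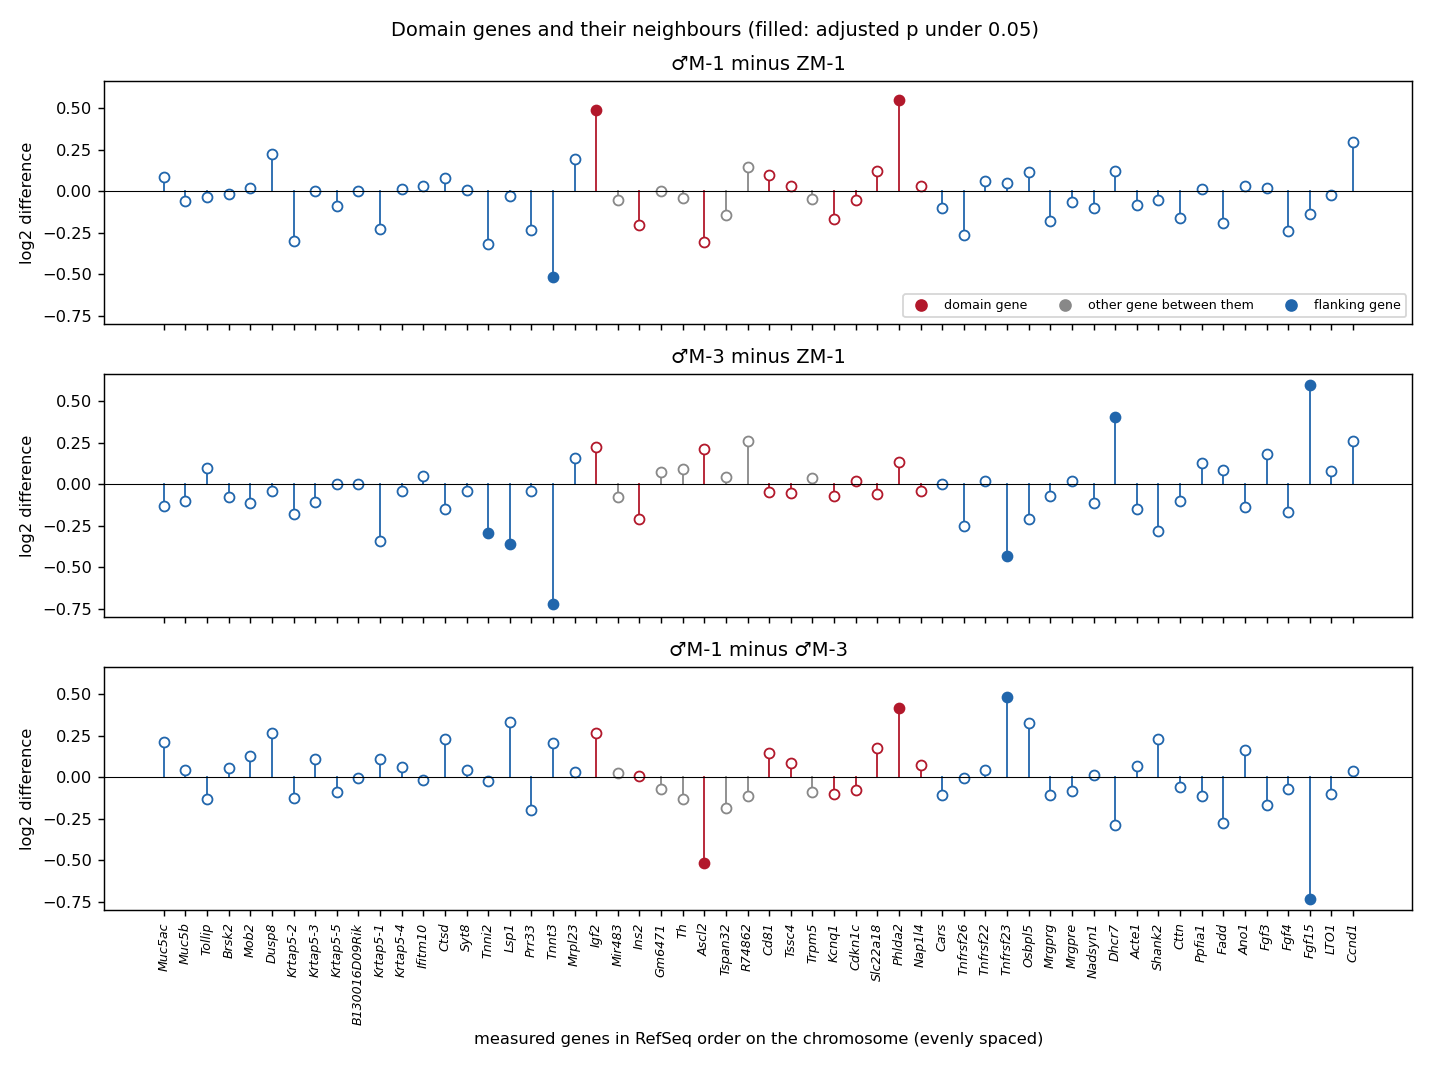
Log2 difference of the measured genes across the domain and its flanks, in gene order, for ♂M-1 minus ZM-1, ♂M-3 minus ZM-1 and ♂M-1 minus ♂M-3. Members are drawn apart from other genes and called genes are filled. The called members Igf2 and Phlda2 in ♂M-1 minus ZM-1 stand between uncalled neighbours.

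Of 20 measured genes flanking the domain on the Igf2 side, 1 was lower and none higher in ♂M-1 against ZM-1. Of all genes 2.53% were lower and 1.89% higher there. In ♂M-3 against ZM-1, 3 were lower, beside 7.20% of all genes. None was called in ♂M-1 against ♂M-3, beside 6.54% of all genes. There 3 had an unadjusted p under 0.05 (Dusp8, Ctsd and Lsp1), beside 19.8% of all genes. The muscle troponin gene Tnnt3 measured 146 and 145 on ♂M-1 arrays, 124 and 128 on ♂M-3 arrays, and 182 and 239 on ZM-1 arrays. It was 1.43-fold lower in ♂M-1 than ZM-1 (adjusted p = 0.0414, lost without either ♂M-1 array, at 0.171 and 0.198, either ♂M-3 array, at 0.0678, or ZM-1 replicate 2, at 0.108) and 1.65-fold lower in ♂M-3 (adjusted p = 0.00399). Its neighbours Tnni2 and Lsp1 were lower in ♂M-3 than in ZM-1 by 1.23-fold and 1.29-fold (adjusted p = 0.0357 and 0.0208). Both calls were lost without either ♂M-3 array, at 0.109 and 0.185 for Tnni2 and 0.123 and 0.0753 for Lsp1, and without a ZM-1 array, replicate 2 for Tnni2 (0.152) and replicate 1 for Lsp1 (0.0875). That of Tnni2 was also lost without either ♂M-1 array, at 0.0560.

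On the Nap1l4 side, the 20 flanking genes gave no call in ♂M-1 against ZM-1, where 3 had an unadjusted p under 0.05 (Tnfrsf26, Fgf4 and Ccnd1), and 2 higher and 1 lower in ♂M-3. Tnfrsf23, a decoy receptor for TRAIL, measured 147 and 149 on ♂M-1 arrays, 105 and 106 on ♂M-3 arrays, and 141 and 144 on ZM-1 arrays. Its arrays in ♂M-3 stood below all others, 1.35-fold lower than in ZM-1 (adjusted p = 0.00471), and it was 1.40-fold higher in ♂M-1 than in ♂M-3 (adjusted p = 0.00536, and 0.0561 without ♂M-1 replicate 2). Fgf15, a fibroblast growth factor gene, ran the other way, 1.51-fold higher in ♂M-3 than in ZM-1 (adjusted p = 0.00389) and 1.66-fold lower in ♂M-1 than in ♂M-3 (adjusted p = 0.00281). Dhcr7, a late enzyme of cholesterol synthesis, was 1.32-fold higher in ♂M-3 than in ZM-1 (adjusted p = 0.0334), a call lost without either ♂M-3 array (0.125 and 0.138) or ZM-1 replicate 2 (0.150). With all probe sets tested, adjusted p was 0.157 for Tnnt3 in ♂M-1, and in ♂M-3 0.112 for Dhcr7, 0.0914 for Tnni2 and 0.0723 for Lsp1. Quantile normalization gave 0.0577 for Tnnt3 in ♂M-1, and 0.0554 for Dhcr7 and 0.0541 for Tnni2 in ♂M-3. Median centring gave 0.0673 for Tnni2.

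The remaining genes listed for the wider region were called in none of these comparisons. Cars, a transfer-RNA synthetase gene, ranged between 909 and 1014 over the arrays, and Osbpl5, an oxysterol-binding protein gene, between 121 and 162. Mrpl23, of the mitochondrial ribosome, lay next to Igf2 among the measured genes. It measured 1159 and 1137 on ♂M-1 arrays, 1150 and 1092 on ♂M-3 arrays, and 1007 and 997 on ZM-1 arrays. Its log2 difference from ZM-1 was 0.20 in ♂M-1 (adjusted p = 0.186) and 0.16 in ♂M-3 (adjusted p = 0.184). The lysosomal protease gene Ctsd ranged between 1233 and 1521, the phosphatase gene Dusp8 between 106 and 134, and Syt8, of the synaptotagmin family, between 58.9 and 73.1. The TRAIL decoy receptor gene Tnfrsf22 ranged between 234 and 271 and its relative Tnfrsf26 between 20.2 and 28.6. Of the 16 genes of that list measured, 1 was lower in ♂M-1 against ZM-1. In ♂M-3 against ZM-1, 1 was higher and 4 lower, and 1 was higher in ♂M-1 against ♂M-3. All genes gave 4.41%, 15.9% and 6.54% called in the same order.

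IGF2 acts through the receptors encoded by Igf1r and Insr, is cleared by Igf2r, and is held by binding proteins that the protease PAPP-A can cut. Of 20 genes of this axis measured, 1 was higher and 1 lower in ♂M-1 against ZM-1. In ♂M-3 against ZM-1, 2 were higher and 3 lower, and in ♂M-1 against ♂M-3, 3 higher and 2 lower. The shares of all genes called were 4.41%, 15.9% and 6.54%. Igf2bp2 was not analysed here. The median log2 difference of the axis was 0.13, 0.051 and 0.055, beside -0.0082, 0.0021 and -0.017 for all genes. No receptor gene was among the calls.

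Igf1, the second growth factor of the axis, measured 50.9 and 46.9 on ♂M-1 arrays, 42.7 and 41.4 on ♂M-3 arrays, and 66.8 and 60.8 on ZM-1 arrays. It was lowest where Igf2 was intermediate and highest where Igf2 was lowest, with no overlap between lines. Igf1 was 1.50-fold lower in ♂M-3 than in ZM-1 (adjusted p = 0.00212) and 1.30-fold lower in ♂M-1 than ZM-1 (adjusted p = 0.0399). The ♂M-1 call did not hold without ♂M-1 replicate 1 (0.0976) or 2 (0.217), either ♂M-3 array (0.0709) or ZM-1 replicate 1 (0.133), with median centring (0.0599) and with quantile normalization (0.0637).

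Pappa, the gene of PAPP-A, measured 152 and 149 on ♂M-1 arrays, 103 and 96.9 on ♂M-3 arrays, and 121 and 107 on ZM-1 arrays. Its ♂M-1 arrays stood above all others. It was 1.50-fold higher in ♂M-1 than in ♂M-3 (adjusted p = 0.00458) and 1.32-fold higher than in ZM-1 (adjusted p = 0.0326). The second of these calls was lost without either ♂M-1 array (0.154 and 0.150), either ♂M-3 array (0.0553) or ZM-1 replicate 2 (0.122).

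Igfbp7, of the wider binding protein family, measured 1829 and 1888 on ♂M-1 arrays, 1176 and 1221 on ♂M-3 arrays, and 2117 and 2038 on ZM-1 arrays. The ♂M-3 arrays stood apart below the others. It was 1.73-fold lower in ♂M-3 than in ZM-1 (adjusted p = 0.000229) and 1.55-fold higher in ♂M-1 than in ♂M-3 (adjusted p = 0.00167). Igfbp3 was 1.44-fold lower in ♂M-3 than in ZM-1 (adjusted p = 0.00288). The lower Igfbp7 and Igfbp3 of ♂M-3 went with its lower fibroblast markers, whose part was not tested.

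Igfbp4 measured 228 and 177 on ♂M-1 arrays, 331 and 343 on ♂M-3 arrays, and 236 and 228 on ZM-1 arrays, highest in ♂M-3. It was 1.67-fold lower in ♂M-1 than in ♂M-3 (adjusted p = 0.00569) and 1.45-fold higher in ♂M-3 than in ZM-1 (adjusted p = 0.0132, lost without ♂M-3 replicate 1 at 0.0573, ♂M-3 replicate 2 at 0.0803 or ZM-1 replicate 2 at 0.0513). Igf2bp3, whose protein binds Igf2 messenger RNA, was 1.31-fold higher in ♂M-3 than in ZM-1 (adjusted p = 0.0115, and 0.0682 or 0.0695 without a ♂M-3 array). Igfbp5 was 1.42-fold higher in ♂M-1 than in ♂M-3 (adjusted p = 0.0138), a call lost without ♂M-1 replicate 1 (0.0698), ♂M-1 replicate 2 (0.116) or ♂M-3 replicate 2 (0.103). Igfbp2 was 1.25-fold lower in ♂M-1 than in ♂M-3 (adjusted p = 0.0483), a call lost without any of the ♂M arrays (0.137 to 0.249) and with quantile normalization (0.0565). With all probe sets tested, adjusted p was 0.129 for Igf1 and 0.117 for Pappa in ♂M-1 against ZM-1 and 0.0693 for Igfbp4 in ♂M-3 against ZM-1. In ♂M-1 against ♂M-3 it was then 0.0683 for Igfbp4, 0.0946 for Igfbp5 and 0.157 for Igfbp2.

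**Figure D4:**
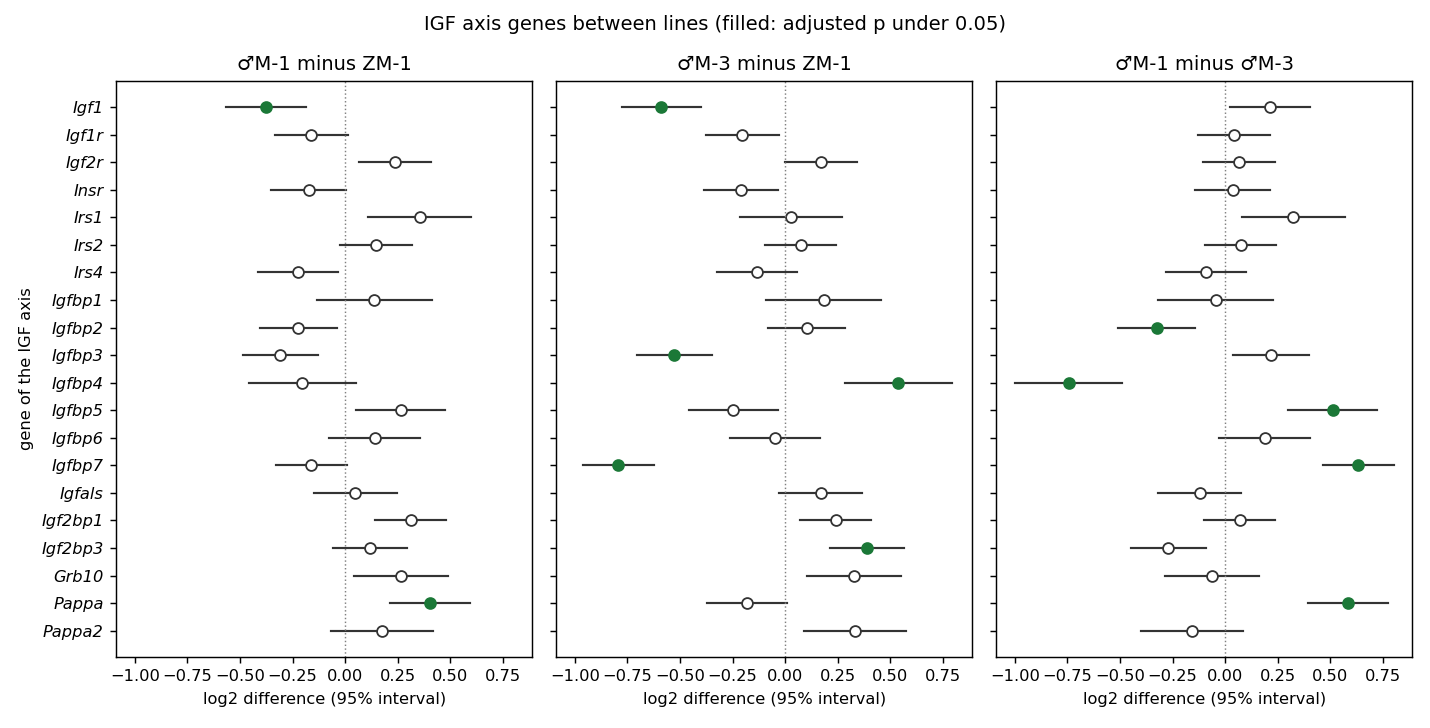
Log2 difference of the 20 measured genes of the IGF axis, in 1 panel per comparison, with 95% confidence intervals and a line at 0. Filled points are called by limma: Pappa is higher and Igf1 lower in ♂M-1 minus ZM-1, while Igf1, Igfbp3 and Igfbp7 are lower and Igfbp4 and Igf2bp3 higher in ♂M-3 minus ZM-1. In ♂M-1 minus ♂M-3, Pappa, Igfbp5 and Igfbp7 are higher and Igfbp2 and Igfbp4 lower.

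For the 3 called members, the genes with the most similar profile over the 6 arrays were found by the root mean square difference of centred log2 values, among genes above the median. Nearest to Igf2 were Fam124a (0.0379), the zinc finger gene Bnc2 (0.0403) and the microtubule-end gene Camsap3 (0.0444). Nearest to Phlda2 were the Notch ligand gene Jag1 (0.0403), the growth factor gene Tgfb2 (0.0646) and the annexin gene Anxa5 (0.0678). Jag1 measured 404 and 458 on ♂M-1 arrays, 327 and 349 on ♂M-3 arrays, and 326 and 301 on ZM-1 arrays. Nearest to Ascl2 were the lysosomal gene Laptm4b (0.0503), the nuclease gene Dnase2a (0.0695) and the protease gene Mmp17 (0.0804). With 6 arrays of 3 lines, such lists describe these arrays only.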

How the data were processed

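Total RNA of the 6 cultures was biotin-labelled with a whole-transcript kit and hybridised to arrays, per the labels' protocols. The deposited values are linear intensity values, 1 per probe set and array. GCOS 1.4 is named per the submitters' processing notes. The steps of background correction, summarisation and normalization are unstated. Array medians lay between 67.2 and 71.3, and the values were used as deposited. The number of arrays limits the precision.

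Of 35556 probe sets, 21789 carried 1 gene symbol, 1621 several, and 12146 were unnamed in the platform annotation. The single-symbol probe set of highest average over all 6 arrays stood for its gene, which left 19938 genes. RefSeq (GRCm38.p6) matched 21698 of the probe sets by Entrez identifier, changed 0 symbols and gave gene order and sequences. The build behind the array is unstated, so no gene coordinates are printed.

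log2(intensity + 1) was fitted with limma 3.58.1 in R 4.3.3, 1 mean per line over all 6 arrays, with two-sided moderated tests, Benjamini-Hochberg adjustment and a threshold of 0.05. Residual degrees of freedom were 3 and prior degrees of freedom 6.01. Spread between repeats of a line is all that the p-values take in. Members and lists were chosen with earlier results of these data known. The text names all members, the other genes of the domain list, up to 6 called genes per other list and pair of lines by largest difference (Igf2bp1 and Ccnd1, called for the ♂M mean alone, are left out), genes named for a lost call or a count, and the 3 nearest profiles of each called member. Lists covered the IGF axis, imprint maintenance, cyclin-dependent kinase inhibitors, and markers of pluripotency, trophectoderm, primitive endoderm, fibroblasts and mesoderm. The fit was tested on simulated data. Alternatives are given at the end.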

Additional observations from a re-analysis of the deposited data

Results flagged for a closer look

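The difference from ZM-1 was not the same in the 2 ♂M lines for Phlda2 and Ascl2, by the limma test of ♂M-1 against ♂M-3, which is the test of that difference. For Phlda2 the difference from ZM-1 was larger in ♂M-1 than in ♂M-3 by 0.42 on the log2 scale (adjusted p = 0.0352), with both ♂M-1 arrays above both ♂M-3 arrays. For Ascl2 the difference was -0.52 (adjusted p = 0.0482). Its mean lay below that of ZM-1 in ♂M-1 and above it in ♂M-3, where the arrays overlapped those of ZM-1. Neither of these passed the test alone. Both calls were lost with a replicate block (adjusted p = 0.0515 for Phlda2 and 0.0756 for Ascl2). They were also lost with all probe sets tested (0.152 and 0.203). Groups of 2 arrays are too small for a check of single outlying arrays.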

How the results depend on the processing

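Igf2 and Phlda2 stayed higher, and Ascl2 lower, in their called comparisons under every alternative run, but each call was lost under some. Testing all probe sets, named or not, called 0 members in ♂M-1 against ZM-1, in ♂M-1 against ♂M-3 and for the ♂M mean, and 275, 442 and 1321 probe sets in all, with 2027 in ♂M-3 against ZM-1. A prior variance that follows intensity called 1632 genes in ♂M-1 against ZM-1, against 880. Members called in ♂M-1 against ♂M-3 were 1 with pseudocount 0. ♂M-3 against ZM-1 gave 1 member (Igf2) with median centring, with genes above the 50th percentile and with that prior variance. Quantile normalization left 1 for the ♂M mean. Leaving out each array in turn gave 0 to 2 members in ♂M-1 against ZM-1, in ♂M-1 against ♂M-3 and for the ♂M mean, and 0 in ♂M-3 against ZM-1, with 234 to 631, 357 to 1495, 1218 to 1491 and 1302 to 2750 genes. The cause was not tested, except that such fits use fewer arrays.

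Deviations of same-numbered arrays from their line means correlated weakly, at -0.035 (♂M-1 and ♂M-3), 0.067 (♂M-1 and ZM-1) and -0.10 (♂M-3 and ZM-1). With 2 arrays per line, such values cannot settle whether the repeat numbers pair the samples. With the number as a replicate block, 0 members were called in ♂M-1 against ♂M-3 (Phlda2 0.0515, Ascl2 0.0756), and 2 in ♂M-1 against ZM-1.

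Median centring moved the share of called genes that were higher to 62.0% (main 42.7%) in ♂M-1 against ZM-1, 70.9% (54.6%) in ♂M-3 against ZM-1 and 71.5% (51.6%) for the ♂M mean. The signs that turned belonged to uncalled members with differences near 0. Median centring gave 0.0092 (Cd81), 0.013 (Nap1l4) and 0.0059 (Tssc4) in ♂M-3 against ZM-1, 0.0047 (Ascl2), 0.036 (Cdkn1c), 0.046 (Nap1l4) and 0.044 (Tssc4) for the ♂M mean, and -0.00045 (Ins2) in ♂M-1 against ♂M-3. Quantile normalization gave -0.026 (Cd81) and 0.018 (Cdkn1c) for the ♂M mean, and -0.027 (Nap1l4) in ♂M-1 against ZM-1. Without single arrays, ♂M-1 against ZM-1 ranged over -0.16 to 0.042 (Cdkn1c), -0.042 to 0.10 (Nap1l4), -0.036 to 0.27 (Slc22a18) and -0.040 to 0.11 (Tssc4). ♂M-3 against ZM-1 ranged over -0.077 to 0.12 (Cdkn1c), -0.12 to 0.028 (Nap1l4), -0.21 to 0.094 (Slc22a18) and -0.12 to 0.022 (Tssc4). The ♂M mean ranged over -0.20 to 0.10 (Ascl2), -0.0055 to 0.055 (Cd81), -0.12 to 0.081 (Cdkn1c), -0.079 to 0.064 (Nap1l4), -0.12 to 0.18 (Slc22a18) and -0.077 to 0.058 (Tssc4), and Ins2 in ♂M-1 against ♂M-3 over -0.014 to 0.029.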

Other observations

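Genes that set or keep imprints were read beside the domain. Of 21 measured, 1 was lower in ♂M-1 against ZM-1, 1 higher and 4 lower in ♂M-3 against ZM-1, and 2 higher in ♂M-1 against ♂M-3. The shares of all genes called were 4.41%, 15.9% and 6.54% in the same order. The de novo methyltransferase gene Dnmt3a measured 282 and 295 on ♂M-1 arrays, 255 and 269 on ♂M-3 arrays, and 406 and 407 on ZM-1 arrays, so that ZM-1 stood above both ♂M lines. It was 1.41-fold lower in ♂M-1 than ZM-1 (adjusted p = 0.00773, and 0.0631 or 0.0544 without a ♂M-1 array) and 1.55-fold lower in ♂M-3 than in ZM-1 (adjusted p = 0.000849). Dnmt3b, its relative, measured 611 and 747 on ♂M-1 arrays, 401 and 428 on ♂M-3 arrays, and 583 and 569 on ZM-1 arrays. It was 1.63-fold higher in ♂M-1 than in ♂M-3 (adjusted p = 0.00457) and 1.39-fold lower in ♂M-3 than in ZM-1 (adjusted p = 0.0144, and 0.0915 or 0.0538 without a ♂M-3 array). Dnmt3l, their cofactor gene, was 1.33-fold higher in ♂M-1 than in ♂M-3 (adjusted p = 0.0167, lost without any of the ♂M arrays at 0.0550 to 0.137) and 1.21-fold lower in ♂M-3 than in ZM-1 (adjusted p = 0.0448, lost without any single array at 0.0657 to 0.246). Zfp57, which guards imprints after fertilization, was 1.25-fold lower in ♂M-3 than in ZM-1 (adjusted p = 0.0237, lost without either ♂M-3 array at 0.0652 and 0.161 or either ZM-1 array at 0.0587 and 0.0784). Dppa3, which shields methylation in the zygote, was 1.77-fold higher in ♂M-3 than in ZM-1 (adjusted p = 0.00438). With all probe sets tested, the calls of Dnmt3a in ♂M-1, of Zfp57, and of Dnmt3b and Dnmt3l in both comparisons were lost (0.0565 to 0.103).

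Among 7 cyclin-dependent kinase inhibitor genes, relatives of Cdkn1c included, limma called none in ♂M-1 against ZM-1, beside 4.41% of all genes. Of the 7, 0 had an unadjusted p under 0.05 there, against 3981 of all 19938 genes. In ♂M-3 against ZM-1, 2 of the 7 were higher and 1 lower, beside 8.66% and 7.20% of all genes. In ♂M-1 against ♂M-3, 1 was higher and 1 lower, beside 3.22% and 3.32%. With so few genes these counts are a description of the list. Cdkn1b, the gene of p27, measured 336 and 310.0 on ♂M-1 arrays, 429 and 461 on ♂M-3 arrays, and 293 and 297 on ZM-1 arrays. It was 1.51-fold higher in ♂M-3 than in ZM-1 (adjusted p = 0.00176) and 1.38-fold lower in ♂M-1 than in ♂M-3 (adjusted p = 0.0114, and 0.111 or 0.101 without replicate 2 of ♂M-1 or of ♂M-3). Cdkn2c was 1.37-fold higher in ♂M-3 than in ZM-1 (adjusted p = 0.0235, lost without ♂M-3 replicate 1 at 0.141, ♂M-3 replicate 2 at 0.0556 or ZM-1 replicate 2 at 0.104). Cdkn2b was 1.25-fold lower in ♂M-3 than in ZM-1 (adjusted p = 0.0232, lost without ♂M-3 replicate 1 at 0.126, ♂M-3 replicate 2 at 0.0985 or ZM-1 replicate 2 at 0.0879) and 1.33-fold higher in ♂M-1 than in ♂M-3 (adjusted p = 0.0145, lost without ♂M-1 replicate 2 at 0.126, ♂M-3 replicate 1 at 0.106 or ♂M-3 replicate 2 at 0.0829). With all probe sets tested, the calls of Cdkn2b, Cdkn2c and, in ♂M-1 against ♂M-3, Cdkn1b were lost (0.0683 to 0.0934). Median centring gave 0.0506 for Cdkn2b in ♂M-3 against ZM-1. Cdkn1a was not analysed here.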
